A study of Mus musculus with 8 samples.

Results

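YY1 binding was mapped by CUT&RUN in 4 of the 8 libraries of this series, 2 from cells with an Alkbh5 deletion named del-cIDR and 2 from wild-type (WT) cells. The members are all YY1 peaks on chromosomes 1 to 19 and X, 34036 peaks in the 4 lists together, of 40570 in all lists of the series on these chromosomes; the other 4 libraries used an antibody against P300. All libraries came from E14TG2a, an established mouse embryonic stem cell line, grown in serum medium with the cytokine LIF, the MEK inhibitor PD0325901 and the GSK3 inhibitor CHIR99021. The sources used here do not give whether the del-cIDR cells were 1 clone, how cultures were replicated, or which residues the deletion removes, and a peak list cannot check the deletion.

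YY1 is a zinc-finger transcription factor that binds DNA mostly near gene starts, acts as an activator or a repressor depending on its partners, and helps to hold enhancers and promoters together. ALKBH5 removes the methyl mark N6-methyladenosine from RNA. The series title places the study in work on how disordered protein regions restrain where demethylases act on the genome. In CUT&RUN an antibody against the protein guides a nuclease that releases the DNA around it, and peaks are places where the released fragments pile up. The regions below are given by position on GRCm39, counted from 1. The gene tables at hand are on another build, so no gene is named.

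YY1 peaks were more numerous in the del-cIDR lists in every class of deposited −log10 q and on every chromosome. Del-cIDR replicates 1 and 2 held 9167 and 15517 peaks, and WT replicates 1 and 2 held 3519 and 5833. Both del-cIDR lists were thus longer than both WT lists, with a ratio of geometric means of 2.63. The two-sided exact permutation test gave p = 0.33 (n = 2 per genotype), the smallest value that 4 libraries allow, so none of the library-level comparisons here can pass 0.05. Nothing in the labels says that replicates are separate cultures, so these p-values measure the spread between libraries only, which may be technical. Leaving out 1 library moved the ratio between 2.02 and 3.42.

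The ratio was highest among the weakest peaks, while the surplus in number was largest at a −log10 q from 2 to 5. Strength here is the deposited −log10 q, the significance that the authors' peak caller gave a peak, and each peak was counted in its class. Below a −log10 q of 2 the del-cIDR lists held 786 and 2023 peaks and the WT lists 252 and 338, a ratio of 4.32. Between 2 and 5 they held 4695 and 8561 against 1746 and 2848, a ratio of 2.84. From 5 to 10 the numbers were 2349 and 3263 against 974 and 1641, a ratio of 2.19. From 10 to 20 they were 964 and 1227 against 392 and 696, a ratio of 2.08. At 20 or more they were 373 and 443 against 155 and 310, a ratio of 1.85. The genotypes did not overlap in any of these classes, and exact permutation p was 0.33 in each (n = 2 per genotype), the smallest possible.

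**Figure D1:**
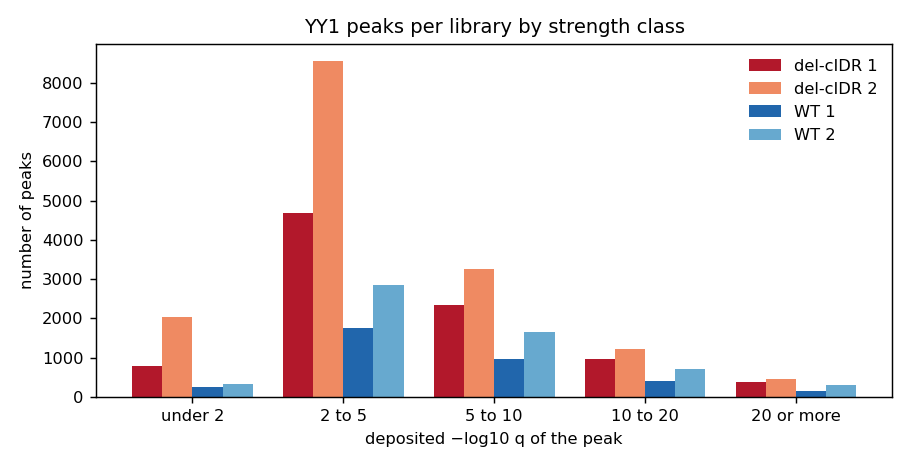
Number of YY1 peaks (vertical axis) in each library, by the peak's deposited −log10 q (horizontal axis); each bar is 1 library. Both del-cIDR bars stand above both WT bars in every class, from 786 and 2023 against 252 and 338 in the weakest class to 373 and 443 against 155 and 310 in the strongest.

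Strong del-cIDR peaks were mostly found in the WT lists, and weak ones mostly not. Each list was divided by −log10 q into 10 bins of equal size, bin 1 the strongest and bin 10 the weakest, and a peak counted as found when it shared at least 1 bp with a peak of the other list. Of bin 1 of del-cIDR replicate 1, 85.1% were found in WT replicate 1 and 96.3% in WT replicate 2. Of its bin 5, 19.3% and 34.9% were found, and of its bin 10, 3.82% and 6.99%. Del-cIDR replicate 2 gave 74.6% and 89.1% in bin 1 and 1.61% and 3.87% in bin 10. The decline was also present within a genotype: 94.4% of bin 1 and 7.87% of bin 10 of del-cIDR replicate 2 were found in del-cIDR replicate 1. WT peaks were found in del-cIDR lists more evenly, with 97.4% and 98.0% of bin 1 of WT replicate 1 and 32.2% and 39.9% of its bin 10 in del-cIDR replicates 1 and 2. The lists searched differ in length, so the shares in opposite directions are not comparable.

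Merging peaks that shared at least 1 bp gave 20558 YY1 regions. Of these, 2008 were held by all 4 libraries, 1957 by 3, 3173 by 2 and 13420 by 1. Del-cIDR replicate 2 alone held 8632 regions, with a median width of 188 bp, and del-cIDR replicate 1 alone held 3030, with a median of 215 bp. Regions held by 1 WT library only numbered 572 in replicate 1 and 1186 in replicate 2. Among regions missing from a single library, 1386 lacked only WT replicate 1 and 373 lacked only WT replicate 2, while 143 lacked only del-cIDR replicate 1 and 55 lacked only del-cIDR replicate 2. The list with the fewest peaks was thus the one most often missing.

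Peak width showed opposite directions depending on which peaks were compared. In whole lists the median width was 278 and 227 bp in del-cIDR replicates 1 and 2 and 287 and 269 bp in WT replicates 1 and 2. These groups overlapped, and the log2 difference of −0.15 gave exact permutation p = 0.67 (n = 2 per genotype). When every list was cut to the length of the shortest, the 3519 peaks with the highest −log10 q, the medians were 397 and 420 bp in del-cIDR and 287 and 331 bp in WT. That is a ratio of 1.32 with no overlap, at exact permutation p = 0.33 (n = 2 per genotype). This cut kept all of WT replicate 1 but only the stronger peaks of the other lists, so it mixes unlike strengths. With peaks of −log10 q of at least 5, a cut that need not match strength either, the medians were 392 and 384 bp against 355 and 358 bp. That is a ratio of 1.09. Within strength classes, medians below a −log10 q of 2 were 202.5 and 164 bp in del-cIDR and 216 and 197 bp in WT, which overlapped. From 2 to 5 they were 239 and 203 bp against 254 and 228 bp, which also overlapped. At 20 or more they were 541 and 558 bp against 454 and 463 bp, with both del-cIDR medians above both WT medians. The same order held from 5 to 10 and from 10 to 20.

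The narrowest peak also differed between libraries. It measured 164 and 134 bp in del-cIDR replicates 1 and 2 and 178 and 163 bp in WT replicates 1 and 2, so the lists do not share a lower limit of width. The part of this limit in the widths was not tested. The bases under peaks came to 3081590 and 4579195 in del-cIDR and to 1172871 and 1895860 in WT lists.

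Peaks at shared positions were wider in del-cIDR cells. In the 2008 regions held by all libraries, del-cIDR peaks had median widths of 452 and 478 bp and WT peaks of 337 and 386.5 bp. Those of del-cIDR lay above those of WT in both replicates, by a ratio of 1.29 (exact permutation p = 0.33, n = 2 per genotype). Taking the strongest peak of each library in a region, 856 regions (42.6%) were wider in both del-cIDR libraries than in both WT libraries, and 120 (5.98%) were narrower in both. The median region was wider by a log2 of 0.33, a ratio of 1.26. When the regions were divided by mean rank score into 4 bins of 502, the ratio was 1.26 in the weakest bin, 1.34 and 1.27 in the next bins and 1.19 in the strongest. At the 292 regions that also overlapped a P300 peak of any library, the median log2 difference in width was 0.13, against 0.34 at the other 1716; this contrast was not tested.

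After the library median was subtracted, no single region differed in width by the test. The limma test on log2 width, with Benjamini-Hochberg adjustment over the 2008 regions, called 0 regions wider (0%) and 0 narrower (0%), with a smallest adjusted p of 0.46. At an unadjusted p under 0.05 it held 144 regions (7.17%). On this relative scale 344 regions (17.1%) were wider and 481 (24%) narrower in both del-cIDR libraries. These counts depend on the medians subtracted, so the larger count was not read as a direction. With 2 libraries per genotype, differences in single regions can go uncalled, so the 0 calls do not show that all regions shifted alike.

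**Figure D2:**
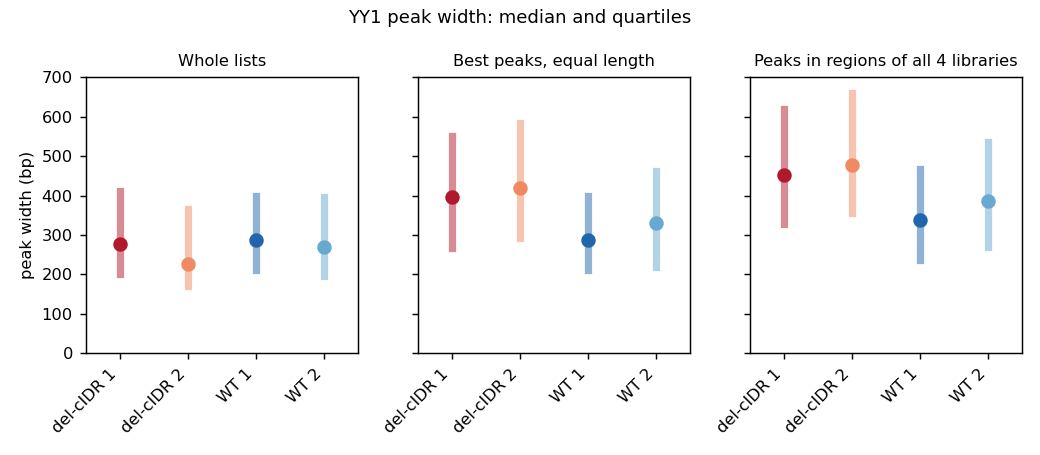
Peak width in bp (vertical axis) for the 4 YY1 libraries in whole lists, in the 3519 best peaks of each list, and in peaks of regions held by all 4 libraries; points are medians and bars run from the lower to the upper quartile. The del-cIDR medians of 278 and 227 bp in whole lists do not stand above WT, while those of 397 and 420 bp at equal length and 452 and 478 bp in shared regions do.

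The widest shared region went against this direction. It lay on chromosome 17 from 40153900 to 40159613, where the strongest peak spanned 1087 and 1565 bp in del-cIDR replicates 1 and 2 and 4371 and 4155 bp in WT replicates 1 and 2. The WT peaks were the longest of their lists, and the del-cIDR libraries held shorter peaks there. Its rank among the 2008 regions was nearly the same in all lists, at 30 and 36 in del-cIDR and 25 and 32 in WT. The next, on chromosome 7 from 6730603 to 6732599, spanned 1968 bp in both del-cIDR lists, their longest peak, and 1634 and 1932 bp in WT. Both regions also overlapped a P300 peak. The region on chromosome 2 from 174136236 to 174137854, free of P300 peaks, spanned 1587 and 1510 bp in del-cIDR and 1422 and 1467 bp in WT. That on chromosome X from 73009718 to 73011219, also free of P300 peaks, spanned 1476 and 1477 bp against 1378 and 1390 bp. The last of the 5 widest, on chromosome 15 from 103147831 to 103149571, was narrower in del-cIDR, at 1152 and 1174 bp against 1296 and 1651 bp.

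The order of strength among shared regions was similar in all libraries. Regions were ranked by −log10 q among the same 2008 in each list, which gives every list equal length. Spearman's rho over these regions was 0.71 for the del-cIDR pair, 0.66 for the WT pair, and 0.61 to 0.68 for pairs of unlike genotype; the regions of a library share its depth, which the files do not give, so these are descriptions without a test. Of the 100 best regions of a library, 75 were common to the del-cIDR pair, 70 to the WT pair and 64 to 72 to pairs of unlike genotype. All libraries had 49 of their best 100 in common, and 31 of these 49 also overlapped a P300 peak, against 14.5% of the 2008 regions. Strong peaks in general overlapped P300 more often, at 47% to 54% of the 100 best peaks of each list. Agreement within a genotype thus exceeded that between genotypes for del-cIDR but not throughout for WT.

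No shared region changed rank by the test. Ranks were turned into normal scores, which spread the ranks as a standard normal curve with an SD of about 1, and limma with Benjamini-Hochberg adjustment was run over all 2008 regions. It called 0 regions higher (0%) and 0 lower (0%) in del-cIDR, with a smallest adjusted p of 0.70, and held 132 regions (6.57%) at an unadjusted p under 0.05. Both del-cIDR libraries ranked a region above both WT libraries in 381 cases (19%) and below both in 365 (18.2%). The lower and upper quartiles of the score differences were −0.36 and 0.38, while the SD between replicates of a genotype had a median of 0.42 over regions. With 2 libraries per genotype, differences of this size and well above it can go uncalled, so the 0 calls do not show that ranks were the same.

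The regions that ranked higher in del-cIDR by the widest margin had WT ranks from 1058 to 1982 of 2008. On chromosome 10 from 128329105 to 128330034 the ranks were 513 and 815 in del-cIDR replicates 1 and 2 and 1969 and 1931 in WT replicates 1 and 2. The score difference was 2.36 with a standard error of 0.36, and limma's adjusted p was 0.70. On chromosome 14 from 79513201 to 79514033 the ranks were 153 and 203 against 1710 and 1058, where the WT replicates lay far apart. On chromosome 7 from 41209786 to 41210527 they were 844 and 316 against 1982 and 1281. Next came chromosome 5 from 96358008 to 96358522, with a score difference of 1.85, and chromosome 17 from 75024745 to 75025075, with 1.83. None of these 5 regions overlapped a P300 peak.

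The regions that ranked lower in del-cIDR by the widest margin had WT ranks from 175 to 1375 of 2008. On chromosome 7 from 26358989 to 26359575 the ranks were 2007 and 1969 in del-cIDR, near the bottom, and 1375 and 1102 in WT. Its peaks were also narrower, at 187 and 195 bp against 450 and 410 bp. On chromosome 6 from 67196477 to 67197141 the ranks were 1944 and 1810 against 785 and 320. On chromosome 8 from 20060333 to 20060674 they were 1338 and 1859 against 245 and 175, the highest WT ranks of the set. Chromosome 17 from 13811207 to 13811640 followed with a score difference of −2.18, and chromosome 8 from 99426033 to 99426585 with −2.02. Of these 5 regions, 3 overlapped a P300 peak, and limma's adjusted p was 0.70 for each. Over all 292 regions with a P300 peak, 52 (17.8%) ranked higher and 68 (23.3%) lower in both del-cIDR libraries. Of the other 1716 regions, 329 (19.2%) ranked higher and 297 (17.3%) lower. The 5 regions picked in each direction therefore do not stand for all regions, and this contrast was not tested.

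The strongest regions of the YY1 lists held their place in every library. The region on chromosome 2 from 98496594 to 98497677 ranked 1 in all libraries with widths of 1080 to 1084 bp. Chromosome 6 from 103626050 to 103626254 ranked 2 in all, and chromosome 9 from 35216512 to 35216884 ranked 3. The region on chromosome 1 from 24651739 to 24652301 ranked 4 in both del-cIDR and 5 in both WT lists, and its strongest peak was 561 bp in del-cIDR replicate 1 but 210 bp in replicate 2. Chromosome 12 from 3159872 to 3160119 ranked 6, 6, 6 and 4 in del-cIDR replicates 1 and 2 and WT replicates 1 and 2. All 5 regions also overlapped a P300 peak, so peaks there were not particular to the YY1 antibody. Positions with high signal for any antibody were not filtered out here, so high rank alone does not show YY1 binding.

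**Figure D3:**
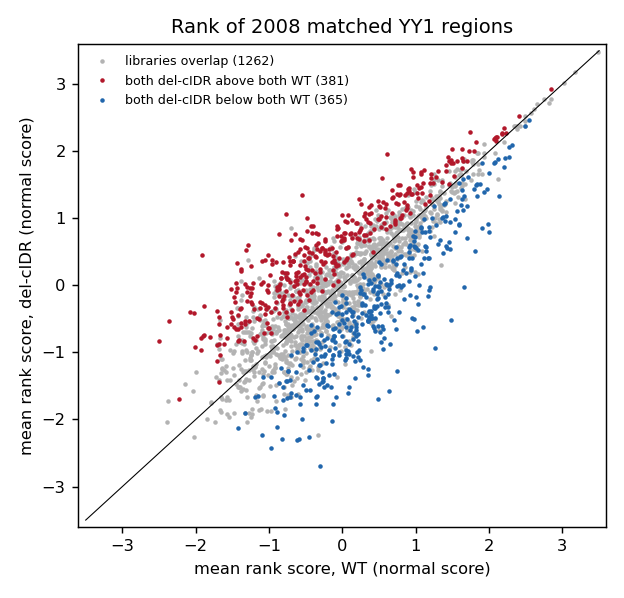
Mean normal score of the rank of 2008 shared YY1 regions in WT (horizontal axis) and del-cIDR libraries (vertical axis); each point is 1 region and the line marks equal scores. Points fall along the line, with 381 regions higher in both del-cIDR libraries and 365 lower in both, and no region passed the adjusted test.

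Summit positions within a shared region differed by similar distances within and between genotypes. The summit is the base with the highest pile-up in a peak. The median distance between summits was 58 bp for the del-cIDR pair, 63 bp for the WT pair and 52 to 63 bp for pairs of unlike genotype. Over all 4 libraries the summits of a region spanned a median of 126.5 bp, and they lay within 50 bp of each other in 229 regions (11.4%). The span narrowed from a median of 203 bp in the weakest of the 4 bins of regions to 78.5 bp in the strongest.

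At equal list length, the spacing of YY1 summits did not separate the genotypes. Among the 3519 best peaks, the median distance to the next summit on a chromosome was 270.5 and 260.8 kb in del-cIDR and 267.7 and 265.8 kb in WT. The groups overlapped, with a log2 difference of −0.0061 and exact permutation p = 1.0 (n = 2 per genotype). In whole lists the distances were 99.9 and 54.9 kb in del-cIDR and 267.7 and 156.3 kb in WT, in the order of the list lengths. Peaks were unevenly placed in every library: the median spacing divided by the mean was 0.358 and 0.333 in del-cIDR and 0.369 and 0.356 in WT, where independent placement at an even density gives 0.693. The difference in this ratio, −0.017 in whole lists, gave exact permutation p = 0.67 (n = 2 per genotype). At equal length the difference was −0.0017.

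Neighbouring peaks made up a slightly smaller share of the best del-cIDR peaks and a larger share of whole del-cIDR lists. At equal length, 9.61% (Wilson 95% interval 8.68 to 10.6) and 9.24% (8.32 to 10.2) of del-cIDR peaks had another summit within 10 kb, against 9.80% (8.86 to 10.8) and 11.4% (10.4 to 12.5) of WT peaks. The groups did not overlap, but the difference of −1.18 percentage points was smaller than the gap between the WT replicates, and without WT replicate 2 it was −0.38 (exact permutation p = 0.33 with all libraries, n = 2 per genotype). In whole lists the shares were 19.4% (18.6 to 20.2) and 31.0% (30.3 to 31.7) in del-cIDR and 9.80% and 15.4% (14.5 to 16.3) in WT, 12.6 points higher in del-cIDR. With peaks of −log10 q of at least 5 they were 10.1% and 12.4% against 8.42% and 9.56%. The direction therefore turned with the list length. These intervals cover counting error only.

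Groups of 3 or more summits with gaps of at most 10 kb were few among the best peaks. At equal length there were 9 and 11 such groups in del-cIDR and 18 and 14 in WT, and in whole lists 93 and 348 against 18 and 34. The longest group in a whole list lay on chromosome X in 3 libraries: 10 summits between 49672894 and 49708777 in del-cIDR replicate 1, 9 between 49686316 and 49712107 in del-cIDR replicate 2 and 7 between 49679916 and 49708802 in WT replicate 2. In WT replicate 1 it lay on chromosome 8, with 6 summits between 21054127 and 21074128. Few of the 2008 shared regions held 2 or more peaks of the same library: 57 and 94 in del-cIDR replicates 1 and 2, and 28 and 58 in WT. Splits of 1 WT peak into several del-cIDR peaks were not counted as such.

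The 5 windows of 100 kb given here were those with the most summits in the library that had the fewest there, a choice that requires the shorter WT lists to be high, so their counts are a description. On chromosome 9 from 3 to 3.1 Mb, close to the assembled start of the chromosome, the libraries held 12 and 10 summits in del-cIDR and 9 and 9 in WT. On chromosome 8 from 20 to 20.1 Mb they held 6 and 10 against 8 and 8, and from 21 to 21.1 Mb 4 and 5 against 7 and 5. On chromosome X from 49.6 to 49.7 Mb they held 8 and 8 against 6 and 8, and on chromosome 1 from 171.1 to 171.2 Mb 5 and 6 against 6 and 4. Both del-cIDR counts lay above both WT counts in the chromosome 9 window, and the counts overlapped or touched in the other 4. The P300 lists had 22 summits each in the chromosome 9 window, 18 to 23 and 12 to 16 in the windows on chromosome 8, and 0 in those on chromosomes X and 1. Elsewhere the del-cIDR peaks covered more windows, with at least 1 summit in 6282 and 8747 windows against 2911 and 4394 in WT.

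Most peaks absent from the other genotype lay more than 10 kb from its peaks. In del-cIDR replicates 1 and 2, 5026 (54.8%) and 10637 (68.6%) of the peaks overlapped no WT peak, and 16.5% (15.5 to 17.6) and 16.1% (15.4 to 16.8) of these lay within 10 kb of one. They were narrow, with medians of 228 and 196 bp, against 382 and 382.5 bp for the other peaks of their lists. In WT replicates 1 and 2, 641 (18.2%) and 1254 (21.5%) of the peaks overlapped no del-cIDR peak, with medians of 228 and 207.5 bp against 309 and 306 bp. Of these, 34.3% (30.7 to 38.1) and 40.0% (37.3 to 42.7) lay within 10 kb of a del-cIDR peak, where the del-cIDR lists searched are longer, so these shares and those for del-cIDR are not comparable. At equal list length, the share of unmatched peaks within 10 kb of a peak of the other list was 8.74% and 8.95% for the del-cIDR pair, 10.7% and 11.1% for the WT pair and 8.70% to 10.7% for pairs of unlike genotype. The between-genotype values lay inside the range of the within-genotype values, apart from a lowest value just under it.

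The surplus of del-cIDR peaks was spread over the genome. On all 20 chromosomes (100%) both del-cIDR lists held more peaks than both WT lists, with ratios from 2.09 on chromosome 8 to 3.10 on chromosome 10 and a median of 2.68. Of the 461 windows of 5 Mb where the 4 lists together had 20 or more peaks, 419 (90.9%) held more peaks in both del-cIDR lists, and 0 (0%) held fewer in both. As a share of the list, 98 windows (21.3%) were higher and 96 (20.8%) lower in both del-cIDR libraries.

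Shares by chromosome differed by small amounts. Both del-cIDR shares lay above both WT shares on 9 chromosomes (45%) and below on 5 (25%). Chromosome 8 held 5.25% (4.81 to 5.72) and 5.46% (5.12 to 5.83) of the del-cIDR peaks and 7.08% (6.27 to 7.97) and 6.43% (5.83 to 7.09) of the WT peaks. Chromosome 6 held 5.42% (4.98 to 5.90) and 5.26% (4.92 to 5.62) against 6.37% (5.61 to 7.22) and 6.29% (5.70 to 6.94). These were the only chromosomes lower in both del-cIDR libraries in whole lists, at equal length and at a −log10 q of at least 5. Chromosome 2 was higher under all 3 choices, with 7.34% (6.83 to 7.89) and 7.59% (7.18 to 8.01) against 6.73% (5.95 to 7.61) and 6.79% (6.17 to 7.46). Exact permutation gave p = 0.33 for each of these 3 chromosomes (n = 2 per genotype), and 0.48 after adjustment over 20 chromosomes. The summed distance between chromosome shares was 1.83% for the del-cIDR pair, 2.37% for the WT pair and 3.40% to 4.58% for pairs of unlike genotype, where this distance is the share of peaks that would have to move to another chromosome. At equal length it was 2.30%, 2.61% and 3.92% to 4.58%, so both genotypes remained closer within than between.

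**Figure D4:**
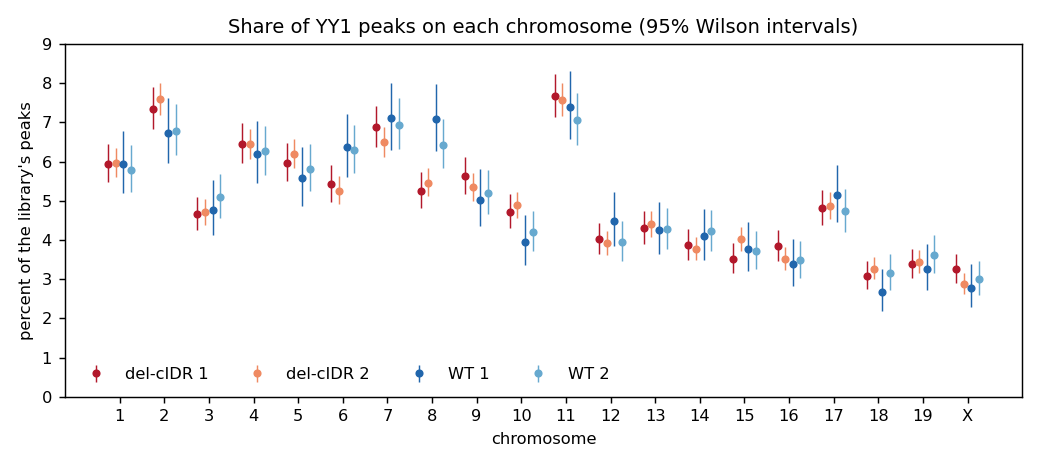
Percent of a library's YY1 peaks (vertical axis) on each chromosome (horizontal axis); points are libraries and bars are Wilson 95% intervals, which cover counting error only. On chromosomes 6 and 8 both del-cIDR points lie below both WT points, at 5.25% to 5.46% against 6.29% to 7.08%.

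On chromosome 8 the lower del-cIDR share was greatest from 20 to 25 Mb. That window held 33 and 51 peaks in del-cIDR and 32 and 41 in WT, or 0.360% and 0.329% of the del-cIDR lists against 0.909% and 0.703% of the WT lists. It was the 5 Mb window with the widest drop in share, followed by chromosome 1 from 170 to 175 Mb, with 22 and 34 peaks against 22 and 22. Peak numbers in both windows were close between genotypes. In the opposite direction stood chromosome 5 from 110 to 115 Mb, with 42 and 72 peaks in del-cIDR and 5 and 18 in WT.

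A stretch of chromosome 11 held no YY1 peak in either WT list. From 109502346 to 115382453, a length of 5.88 Mb between neighbouring WT summits, del-cIDR replicates 1 and 2 had 20 and 48 YY1 summits and WT replicates 1 and 2 had 0 and 0. This was 0.218% and 0.309% of the del-cIDR peaks. The stretch was chosen after its values were seen, as the one between neighbouring WT summits with the most del-cIDR summits. Its counts are therefore a description, and no counting interval is given for the 0 in WT. Its flanks were not empty in WT: in the 5.88 Mb before it the lists held 40 and 64 del-cIDR and 18 and 21 WT summits, and in the 5.88 Mb after it 57 and 111 against 22 and 41. The next stretches of this kind held 31 del-cIDR summits on chromosome X from 135642286 to 141498209, and 30 on chromosome 2 from 130938593 to 132105559. No stretch free of del-cIDR summits held more than 6 WT summits, a number that the shorter WT lists limit.

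Most peaks in the chromosome 11 stretch were weak and held by 1 del-cIDR library. Their median −log10 q was 2.54 and 2.74 in del-cIDR replicates 1 and 2, against 4.20 and 3.62 in the whole lists. Their median widths were 221.5 and 179 bp, against 278 and 227 bp. Of the 20 peaks of replicate 1, 7 overlapped a peak of replicate 2. Over the whole list of replicate 1, the share found in replicate 2 ran from 98.0% in bin 1 to 65.6% in bin 5, 40.9% in bin 8 and 25.2% in bin 10. The best of the 7, on chromosome 11 from 113063486 to 113064120, was 590 and 635 bp wide and stood above 80.1% and 93.3% of the peaks of its lists. The second, from 114085043 to 114085391, stood above 46.0% and 82.1%. Among the 3519 best peaks of each list the stretch held 2 and 3 del-cIDR summits against 0 and 0 in WT. That is fewer than the 7 to 9 summits of one equal-length list found in the emptiest stretch of another, which occurred within genotypes too. In whole lists, stretches free of a WT list held up to 23 and 54 summits of del-cIDR replicates 1 and 2 for WT replicate 1 and up to 20 and 48 for WT replicate 2, all at this place. Within genotypes the most was 16 summits of del-cIDR replicate 2 in a stretch free of del-cIDR replicate 1, and 14 of WT replicate 2 in one free of WT replicate 1. These whole-list numbers depend on the list lengths. The P300 lists held 4 and 2 summits there in del-cIDR and 1 and 2 in WT libraries. Peak lists do not measure DNA copy number, and a difference in it between the cells was not tested.

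**Figure D5:**
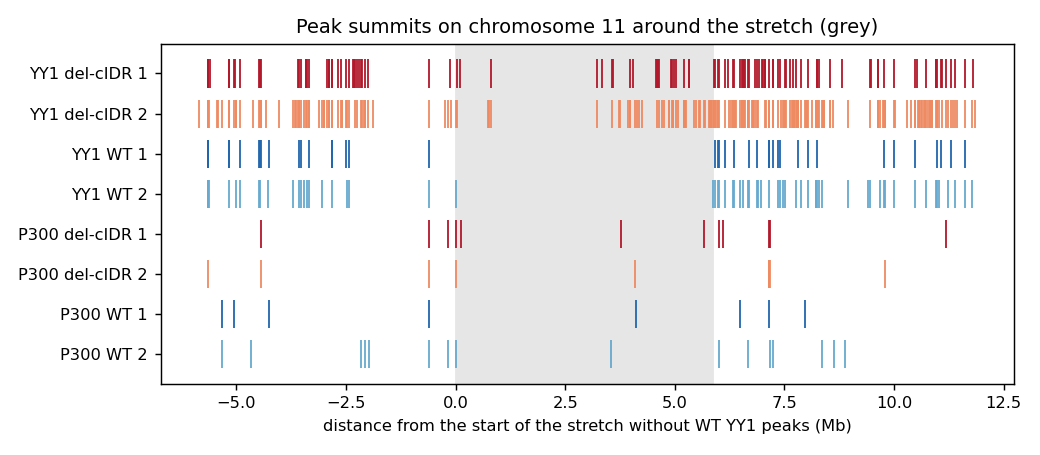
Peak summits (ticks) on chromosome 11 in each YY1 and P300 library (rows), by distance in Mb from the start of the stretch without WT YY1 peaks, which is shaded grey and is 5.88 Mb long. The rows of YY1 del-cIDR replicates 1 and 2 hold 20 and 48 ticks in the grey area and those of YY1 WT hold 0, while WT ticks stand on both sides of it.

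Positions also called with the P300 antibody made up a smaller share of the whole del-cIDR lists. Among the best peaks, whether the genotypes overlapped depended on how many peaks were taken. Of the YY1 peaks, 8.89% and 7.77% in del-cIDR and 13.1% and 11.8% in WT overlapped a P300 peak of any library. At equal length the shares were 12.25% and 13.10% against 13.07% and 13.61%. Among the 500 best peaks of a list they were 20% and 23.2% against 23.8% and 23.2%, and among the 2000 best 12.75% and 14.65% against 15.1% and 14.65%, with tied values in each. Among the 100 best they were 47% and 49% against 53% and 54%. Among the 1000 best they were 15% and 16.3% against 18.4% and 17.4%. Both del-cIDR shares lay below both WT shares at both of these lengths. Without the peaks that overlapped a P300 peak, the lists held 8352 and 14311 peaks in del-cIDR and 3059 and 5145 in WT, a ratio of 2.76.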

How the data were processed

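The members, comparisons and lists were chosen with earlier results of these data known. Values are 1 narrowPeak list per library. MACS2, BWA, fastp, Picard, SAMtools and featureCounts are named, without roles or versions, in the submitters' processing notes, as is build GRCm39. The deposited score is a whole number per peak, and the authors' fold enrichment is a deposited ratio over local background. The deposited −log10 p and −log10 q are the peak caller's. The −log10 q ranked peaks within a list, and the same cuts on it classed the peaks of every list. Control libraries and read totals are not given in the sources used here, so depth is unknown and limits what a missing peak means. Peaks outside chromosomes 1 to 19 and X, 0.683% to 1.29% of a list, were left out. No more than 23 intervals were identical between any pair of lists.

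Peaks sharing at least 1 bp were merged, and the strongest peak of a library stood for it in a region. Library values were compared as del-cIDR minus WT by two-sided exact permutation over 6 assignments. Equal-length lists held the 3519 peaks with the highest −log10 q. Ranks, as normal scores, and median-centred log2 widths of regions in all 4 libraries were tested with limma 3.58.1 in R 4.3.3. Benjamini-Hochberg adjustment and a threshold of 0.05 were used. The test on ranks was tried on simulated data, and the test on widths was not. Python 3.11.15 was used otherwise. Regions named were the 5 with the largest non-overlapping score difference in each direction, the 5 best ranked, the 5 widest and the 5 most crowded 100 kb windows; the 5 Mb windows and stretches were chosen after seeing the data. Alternatives were a −log10 q of at least 5, other list lengths and distances, deposited fold in place of −log10 q, single-peak regions, regions free of P300 peaks, each library left out, and the replicate number as a block. The gene part of the plan was not run, since the gene tables are on another build.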

Additional observations from a re-analysis of the deposited data

Results flagged for a closer look

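Peaks outside chromosomes 1 to 19 and X were not used in the comparisons and were present in every YY1 list. They numbered 63 and 137 in del-cIDR replicates 1 and 2 and 46 and 74 in WT replicates 1 and 2. Of these, 11 and 14 in del-cIDR and 8 and 9 in WT lay on chromosome Y, and the rest lay on other sequences.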

How the results depend on the processing

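Peak number kept its direction at a −log10 q of at least 5, without peaks that overlap a P300 peak and without each library. Its log2 ratio was 1.02 to 1.78 when 1 library was left out. Relative spacing differed by −0.017 in whole lists and −0.021 at a −log10 q of at least 5. When 1 library was left out the difference ran from −0.030 to −0.0052. At equal length the difference shrank to −0.0017, and the genotypes overlapped there as in whole lists. Peak width turned from −0.15 (log2) in whole lists to 0.12 at a −log10 q of at least 5, 0.41 at equal length and 0.37 in regions held by all 4 libraries, and ran from −0.29 to 0.00076 when 1 library was left out, the last without del-cIDR replicate 2. Summit spacing was −0.0061 (log2) at equal length, −1.17 at a −log10 q of at least 5 and −1.47 in whole lists. It ran from −0.032 to 0.020 when 1 library was left out, turning without del-cIDR replicate 2. The clustered share turned from −1.18 points to 2.24 at a −log10 q of at least 5 and 12.6 in whole lists, and ran from −1.97 to −0.38 when 1 library was left out. Chromosomes with a higher del-cIDR share numbered 9 in whole lists, 5 when weaker peaks were cut (−log10 q under 5) and 5 at equal length. Those with a lower share went from 5 to 2 with this cut. Without 1 library the higher and lower chromosomes numbered 10 to 12 and 6 to 7, where fewer libraries make overlap rarer. Membership also changed: of the 9, only chromosomes 2 and 11 stayed higher at equal length, while 7, 18 and X joined them. With the cut, 2, 4 and 10 stayed, and 18 and X joined. Chromosome 7 was lower in whole lists, at 6.88% and 6.49% in del-cIDR against 7.10% and 6.94% in WT. At equal length it was higher, at 7.27% and 7.16% against 7.10% and 6.96%. Calls by limma were 0 for rank and 0 for width under each alternative run for matched regions, with smallest adjusted p of 0.56 to 0.90 for rank and 0.12 to 0.77 for width and 86 to 212 regions at an unadjusted p under 0.05. The chromosome 11 stretch, tried after its values were seen, held 7 del-cIDR summits at a −log10 q of at least 5, 6 at equal length over its longer span of 6.52 Mb, and 20 to 77 when 1 library was left out.

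With the replicate number as a block, the log2 ratio of peak number was 1.38 in replicate 1 and 1.41 in replicate 2, and limma called 0 regions for rank and 0 for width. Deviations of same-numbered libraries correlated at 0.039 for rank and 0.018 for width, so the numbers are not shown to pair the libraries. Depth is unknown, and the SD between 2 replicates rests on 1 difference.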
